A study of Mus musculus with 22 samples.

Results

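The genes of procollagen processing were followed in forelimbs of mouse embryos with and without Chsy1. Members were the 10 genes named by the array design, or by a RefSeq accession, as Pcolce2, Pcolce, Bmp1, Tll1, Adamts2, Adamts3, Plod1, Plod2, Serpinh1 and Lox. They held 16 probes, of which 15 passed the filter on dim probes, out of 41174 non-control probes and 27780 that passed. Each of the 10 genes kept at least 1 probe, among 16162 named genes (18625 with unnamed probes) that were tested. Pcolce2 was picked because it was among the few genes past the threshold between the genotypes in earlier results of these data, and the other 9 were listed around it by their function. The values of Pcolce2 between the genotypes are therefore a description and support nothing, while the other 9 are read in the fit over all genes.

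The series compared 13 forelimb samples labelled Chsy-1 knockout with 9 labelled wild type, all of strain 129 and collected at 13.5 days of embryonic age. Sample RNA carried Cy5 and was read on 2-colour arrays beside universal mouse reference RNA labelled with Cy3, so each value gives sample over reference on the log2 scale. The dyes were not swapped on any array, so a level against the reference may hold a dye effect of the probe. The labels give neither the altered part of Chsy1, nor the zygosity, nor whether a sample is 1 embryo or a pool, and nothing says the samples came from separate litters, so the p-values speak only of spread among these samples, which may be technical. In whole forelimbs, fewer cells of a type and less RNA per cell cannot be told apart.

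Fibrillar collagens leave the cell as procollagens that carry a propeptide at each end. Inside the endoplasmic reticulum, lysyl hydroxylases modify the chains and a collagen-binding chaperone holds the triple helix. Outside, tolloid proteinases remove the C-terminal propeptide with the help of procollagen C-proteinase enhancers, ADAMTS proteinases remove the N-terminal propeptide, and lysyl oxidase then prepares the fibrils for cross-linking. In the limb these fibrils build cartilage, perichondrium, tendon and dermis.

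Both enhancer genes are shown with the 250 bases that precede their annotated start, because they encode related proteins but lie on different chromosomes and gave different values below. The sequences are those of RefSeq on GRCm38.p6, and they run 5′ to 3′ on the strand of the gene. The set of promoters used here held 7 of the 10 genes and lacked Bmp1, Plod2 and Lox. Capitals mark a GC box, searched as GGGCGG on both strands.
Pcolce2: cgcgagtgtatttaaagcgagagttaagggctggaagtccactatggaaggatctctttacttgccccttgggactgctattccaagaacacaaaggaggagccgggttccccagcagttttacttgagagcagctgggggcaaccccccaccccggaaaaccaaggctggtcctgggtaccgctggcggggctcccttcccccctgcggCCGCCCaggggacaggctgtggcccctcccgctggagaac
Pcolce: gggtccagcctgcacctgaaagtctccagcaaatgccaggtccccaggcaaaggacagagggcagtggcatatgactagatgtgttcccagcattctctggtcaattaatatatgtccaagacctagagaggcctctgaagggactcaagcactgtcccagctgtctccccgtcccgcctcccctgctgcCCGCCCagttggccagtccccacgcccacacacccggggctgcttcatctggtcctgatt
The Pcolce2 stretch is chr9:95637378-95637627 on the plus strand and has a GC content of 61.2%. That of Pcolce is chr5:137611405-137611654 on the minus strand and has a GC content of 58.8%. Each holds 1 GC box, in the reverse orientation, from 40 to 35 bases before the start of Pcolce2 and from 60 to 55 bases before that of Pcolce. A GC box was found in 6 of the 7 members' stretches and in 32.7% of 32851 promoters of the same length. The letters of a TATA box (TATAAA) were found in Plod1 alone and in 12.4% of promoters. That match was in the reverse orientation, from 232 to 227 bases before the start of Plod1. A CCAAT box (CCAAT) was found in Tll1 alone, also reversed, from 80 to 76 bases before its start, and in 33.8% of promoters. These 3 motifs share no letters by overlap in the members, and a match of letters is a description only.

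Some facts of the whole series bear on every value below. Of 43379 non-control spots, 27214 to 30599 were well above background in Cy5 on an array, with medians of 102.8 to 178.9 intensity units for signal and 54 to 57 for background. The number of arrays limits the precision. Chsy1 itself averaged -4.38 ± 1.39 (SD, n = 13) in knockout, against 1.73 ± 0.28 (SD, n = 9) in wild type. The array labelled knockout 1 stood at 0.15, while the other knockout arrays lay between -5.12 and -4.05, so it goes against its label in part. Wild-type 1 was the lowest wild-type array in 8 of 10 lists of cell type markers. All 6 slides held both genotypes, and each slide was scanned at its own time. Of the 4 positions on a slide, position 1 held only wild-type and positions 3 and 4 only knockout arrays, so genotype and position can be told apart only within position 2, which had 3 arrays of each. The 8 markers of limb mesenchyme and connective tissue were all well above background on all 22 arrays, as were the 13 cartilage markers.

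Pcolce2 encodes 1 of the 2 procollagen C-proteinase enhancers. Its probe was placed by the files at chr9:95504369-95504428 of mm8, a build for which no annotation was used here. The log2 ratio to the reference had a lowest value of -0.26, a median of -0.18 and a highest of 0.13 in the 13 knockout arrays, against 0.033, 0.19 and 0.51 in the 9 wild-type arrays. The groups overlapped by 1 array: knockout 5, the highest of its group, stood above wild-type 8 and wild-type 9, while the other 12 knockout arrays lay below every wild-type array. The mean was -0.13 ± 0.11 (SD, n = 13) in knockout and 0.22 ± 0.15 (SD, n = 9) in wild type. After loess, Pcolce2 RNA was thus near the level of the reference in both genotypes, at 0.914 times it in knockout and 1.17 times it in wild type. The raw Cy3 signal of the reference was 471.1 to 589.1 units, below the raw Cy5 signal, so this level rests on the normalisation. The values that chose the gene were a difference of -0.35 (SE 0.058, 95% interval -0.47 to -0.23), which is 1.28-fold lower in knockout, and a limma adjusted p of 0.019, rank 3 by p among all genes. That adjusted p was above 0.05 under 10 of 19 other settings, and without wild-type 2, 5 or 6 (at most 0.054). The raw Cy5 signal overlapped widely, from 799.9 to 1212 units in knockout and from 665.2 to 1599 in wild type, before the arrays were normalised.

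**Figure D1:**
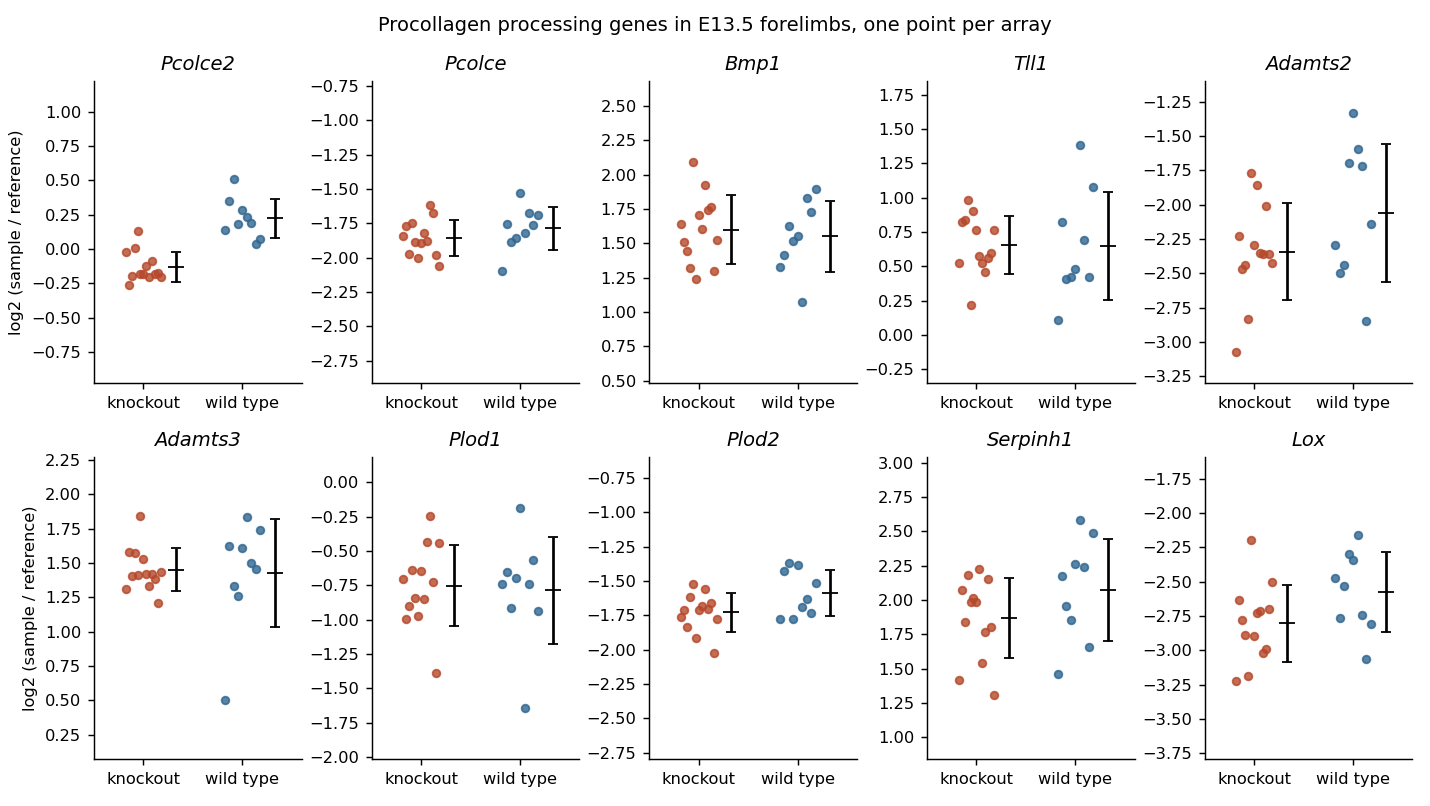
Log2 ratio of sample to reference RNA for the 10 genes in 13 knockout arrays (left, red) and 9 wild-type arrays (right, blue). Each point is an array, bars give the mean ± SD, and every panel spans the same number of log2 units. Pcolce2 overlapped by 1 knockout array at 0.13, while the groups of the other 9 genes overlapped widely.

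The lower Pcolce2 ratio was seen on every slide. The difference on single slides ranged from -0.48 to -0.20, and on 5 of the 6 slides each knockout array lay below each wild-type array of that slide. The exception was the slide that held knockout 5 and wild-type 8. Slides 4, 5 and 6 held 1 wild-type array each, in position 1, where no knockout array lay. Of the other genes, none past the threshold, Adamts2 and Lox were apart in this way on 4 of 6 slides. Pcolce, Adamts3 and Plod1 were so on 3, Plod2 and Serpinh1 on 2, and Bmp1 and Tll1 on 1. A slide held 2 or 3 knockout and 1 or 2 wild-type arrays, so such a gap can easily arise by chance. No share over all genes is given for this, and the slide values restate the contrast that picked Pcolce2. Without the array labelled knockout 1 the Pcolce2 difference was -0.36, and without wild-type 1 it was also -0.36.

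Position on the slide moved with the same value. In knockout the mean was -0.16 ± 0.13 (SD, n = 3) in position 2, -0.094 ± 0.14 (SD, n = 6) in position 3 and -0.16 ± 0.052 (SD, n = 4) in position 4. In wild type it was 0.28 ± 0.13 (SD, n = 6) in position 1 and 0.099 ± 0.081 (SD, n = 3) in position 2. Within position 2 the 3 knockout arrays lay between -0.26 and -0.020 and the 3 wild-type arrays between 0.033 and 0.19, so they did not overlap, and the difference was -0.26 (-0.33 without the array labelled knockout 1). With position as a block the limma adjusted p was 1.00 for Pcolce2, and with slide as a block it was 0.24. The part of position in the Pcolce2 value was not tested beyond these fits.

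**Figure D2:**
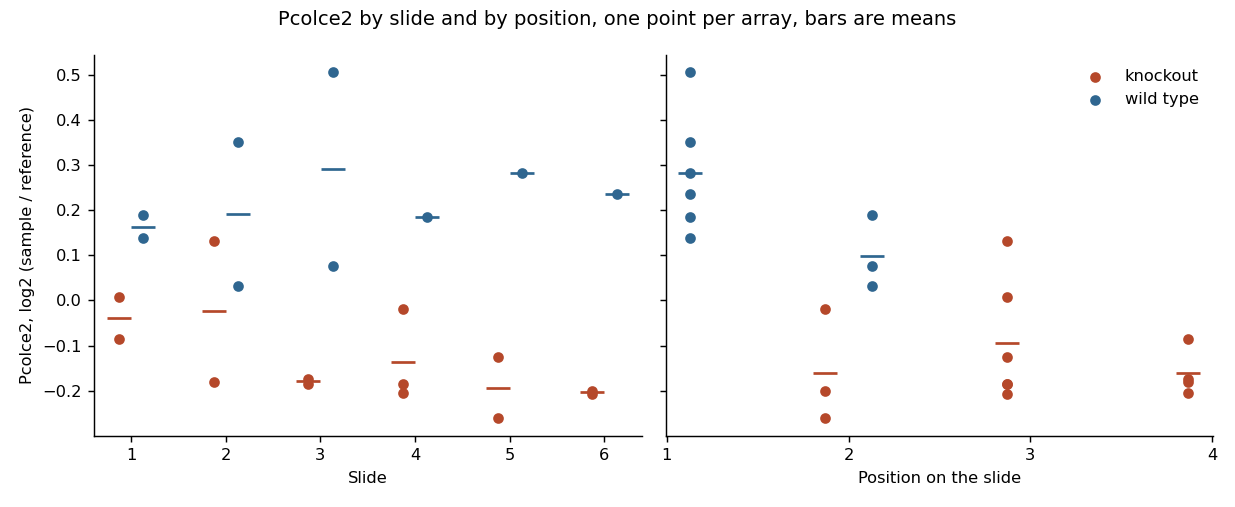
Pcolce2 log2 ratio of sample to reference by slide (left panel) and by position on the slide (right panel), with knockout in red to the left of wild type in blue. Each point is an array and short bars are means. On each slide the knockout mean is below that of wild type, with differences from -0.48 to -0.20, and position 2 is the only position with both genotypes.

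Markers of other forelimb cells were set beside Pcolce2. All 7 surface ectoderm markers were lower in knockout (median -0.13), and their mean level, centred over arrays, ranged from -0.25 to 0.16 in knockout and from -0.18 to 0.38 in wild type. Within genotypes it varied with Pcolce2 (Pearson r = 0.59 over 22 arrays that share slides and normalisation), as did that of 8 mesenchyme markers (r = 0.49), of which 5 were lower, with levels from -0.60 to 0.27 in knockout and from -0.35 to 0.38 in wild type. Cartilage markers had r = 0.22 and were lower for 10 of 13, with levels from -0.59 to 0.22 in knockout and from -1.0 to 0.41 in wild type. For tendon markers r was 0.068 and 3 of 6 were lower, with levels from -0.37 to 0.35 in knockout and from -0.56 to 0.36 in wild type. For osteoblast and perichondrium markers r was -0.16 and all 6 tested were lower, with levels from -0.32 to 0.13 in knockout and from -0.20 to 0.37 in wild type. Skeletal muscle markers were lower for 9 of 10 tested (median -0.15, r = 0.20), with levels from -0.50 to 0.29 in knockout and from -0.50 to 0.48 in wild type. Endothelial markers were lower for 6 of 7 (r = 0.26), with levels from -0.74 to 0.17 in knockout and from -0.99 to 0.29 in wild type. Macrophage markers were lower for 3 of 5 (r = -0.050), with levels from -0.26 to 0.21 in knockout and from -0.33 to 0.31 in wild type. Erythroid markers were lower for 2 of 5 (r = 0.35), with levels from -0.32 to 0.39 in knockout and from -0.49 to 0.47 in wild type. Schwann cell and nerve markers were higher for 6 of 6 (median 0.15, r = 0.11), with levels from -0.32 to 0.27 in knockout and from -1.02 to 0.16 in wild type. None of these markers passed the test over all genes, and their part in the Pcolce2 value was not tested.

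Among the 10 genes, 1 passed a limma adjusted p of 0.05 between the genotypes, and it is the gene that was picked by this contrast. Over all 18625 genes tested the share past the threshold was 0.0215%, all lower in knockout. No member had groups that did not overlap, which held for 0.00537% of all genes. In direction, 6 of the 10 were lower and 4 higher in knockout, with a median difference of -0.11, beside 53.4% lower and a median of -0.0072 over all genes tested. With median centring in place of loess the median of all genes moved to 0.24, and 9 of the 10 members were higher in knockout. Relative to that median 7 of the 10 were lower. The 95% interval stayed inside a 1.5-fold change up or down for all but Adamts2. Within position 2 each knockout array lay below each wild-type array for 3 of the 10, namely Pcolce2, Pcolce and Bmp1, which held for 3.91% of all genes tested. These are differences of ratios that the added offset compresses in dim genes.

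**Figure D3:**
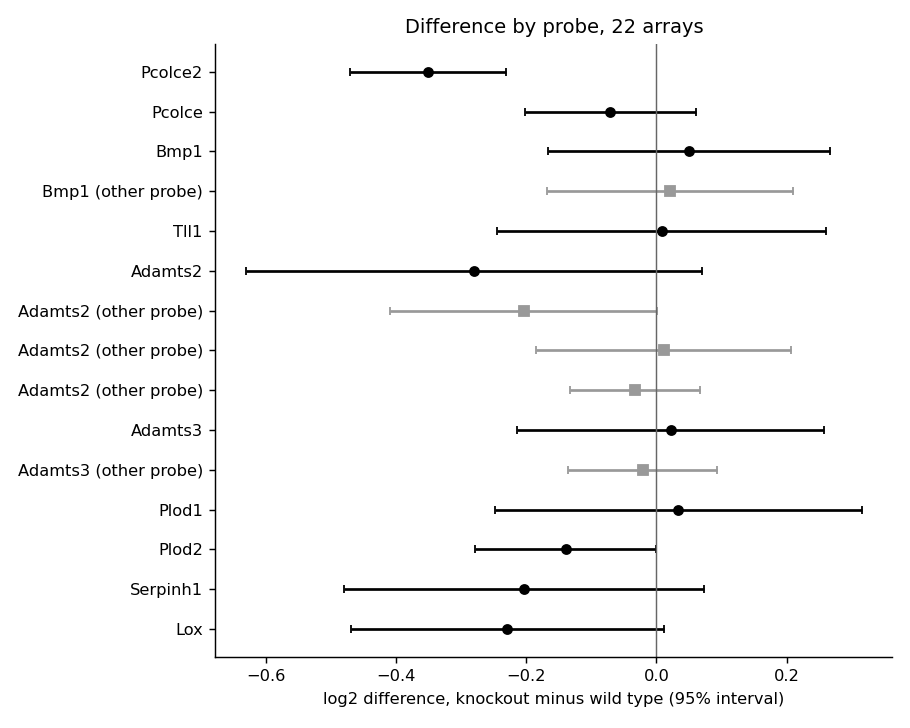
Log2 difference, knockout minus wild type, with its 95% interval for the 15 tested probes of the 10 genes over 22 arrays. Black circles are the probe that represents the gene and grey squares its other probes. The interval of Pcolce2 runs from -0.47 to -0.23, and among the other 14 probes the interval of Plod2, which ends at -0.00054 in this fit over all probes, is the other that leaves out 0.

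Pcolce, the gene of the related enhancer, was far lower in the forelimb than in the reference RNA, at 0.276 times it in knockout and 0.290 times it in wild type. Its probe lies at chr5:137834939-137834998 (mm8). The ratio had a lowest value of -2.06, a median of -1.88 and a highest of -1.62 in knockout, against -2.10, -1.76 and -1.53 in wild type. The groups overlapped nearly throughout. The difference was -0.071 (95% interval -0.20 to 0.060, limma adjusted p = 0.94). Within position 2 the difference was -0.15, with the 3 arrays of each genotype apart. Pcolce and Pcolce2 varied almost independently within genotypes (r = 0.11 over 22 arrays).

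The tolloid proteinases, which cut the C-terminal propeptide, gave no difference past the threshold. Bmp1, the main tolloid of collagen processing, stood above the reference, at 3.03 times it in knockout and 2.93 times it in wild type. Its ratio ran from 1.24 to 2.09 in knockout and from 1.07 to 1.90 in wild type, and the difference was 0.050 (-0.17 to 0.27, limma adjusted p = 0.98). A second Bmp1 probe gave 0.021, and both probes varied together within genotypes (r = 0.70). Within position 2 the Bmp1 difference was -0.28, again with the 3 arrays of each genotype apart, against the sign over all arrays. The difference of 0.050 over all positions turned to -0.010 when wild-type 6 was left out. Tll1, a related tolloid known for its role in mouse heart septation, was dim: its Cy5 signal was 82.4 to 251.2 units in knockout and 81.5 to 230.7 in wild type. It was well above background in 12 knockout and 9 wild-type arrays, while the reference was so on 1 of 22, so its ratio gives no level against the reference. The ratio ran from 0.22 to 0.98 in knockout and from 0.11 to 1.39 in wild type, with a difference of 0.0083 (-0.24 to 0.26, limma adjusted p = 0.99). Its sign turned in 11 of 22 fits that left out an array, at most to -0.059, without wild-type 1.

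The N-proteinase genes differed by probe. Adamts2, the main enzyme that removes the N-terminal propeptide of type I procollagen, had 4 tested probes on chromosome 11 (mm8). The probe at 50647393 to 50647452 had the brightest signal and gave a ratio with a lowest value of -3.07, a median of -2.36 and a highest of -1.77 in knockout, against -2.85, -2.14 and -1.33 in wild type. Its groups overlapped over most of their range, and the spread was wide, with an SD of 0.35 in knockout and 0.50 in wild type. The difference was -0.28 (-0.63 to 0.070, limma adjusted p = 0.92). A probe further along, at 50650754 to 50650813, gave -0.20 and varied with the first within genotypes (r = 0.71). Those at 50641399 to 50641458 and 50620109 to 50620168 gave 0.011 and -0.033, and varied less with the first (r = 0.26 and 0.044). The first probe had Cy5 signals of 605.9 to 2098 units over both genotypes. The others were dimmer, at 99.5 to 276.0, 168.5 to 420.8 and 75.9 to 152.0 units in the order given. The added offset compresses ratios in dim probes, and its part in these unlike values was not tested. With such unlike probes, no single value stands for Adamts2 here.

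Adamts3, which cuts type II procollagen and also activates a lymphatic growth factor, stood at 2.73 times the reference in knockout and 2.69 times in wild type. The reference signal of the probe used was dim, at 64.5 to 78.2 units, so this level is approximate. It was well above background on 22 of 22 arrays. The ratio ran from 1.21 to 1.85 in knockout and from 0.50 to 1.84 in wild type, where wild-type 1 held the lowest value and the next was 1.26. The difference was 0.022 (-0.21 to 0.26, limma adjusted p = 0.99) with all arrays and -0.094 without wild-type 1 (-0.011 without knockout 6). A second probe, well above background on 7 knockout and 4 wild-type arrays, gave -0.021 and varied little with the first within genotypes (r = 0.16). Another was well above background on 0 knockout and 2 wild-type arrays and was not tested.

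Of the genes that act inside the cell, Plod2 came nearest to a difference. It encodes the lysyl hydroxylase of the collagen telopeptides, which sets the kind of cross-link formed later. The ratio had a lowest value of -2.02, a median of -1.71 and a highest of -1.52 in knockout, against -1.78, -1.63 and -1.37 in wild type. The groups overlapped, although 3 knockout arrays lay below all wild-type arrays and 4 wild-type arrays above all knockout arrays. The mean was -1.73 ± 0.14 (SD, n = 13) in knockout and -1.59 ± 0.17 (SD, n = 9) in wild type. The difference was -0.14 (95% interval -0.28 to -0.00063), with an unadjusted limma p of 0.049 and an adjusted p of 0.92, and 5.33% of all genes had an unadjusted p as small as 0.05. Plod2 was lower on 4 of 6 slides, by -0.53 and -0.31 on slides 3 and 5 but only -0.0087 and -0.0050 on slides 2 and 6. It was higher on slides 1 and 4, by 0.045 and 0.029. Within position 2 it differed by -0.14.

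Plod1, the lysyl hydroxylase of the helix, had a wide spread without a difference. Its ratio ran from -1.39 to -0.24 in knockout and from -1.64 to -0.19 in wild type. The difference was 0.033 (-0.25 to 0.32, limma adjusted p = 0.99), and single slides gave -0.73 to 0.97. It was -0.074 without wild-type 6 and -0.0090 without knockout 10. Its probe spans 1421 bases of the genome, at chromosome 4, 146759728 to 146761148 (mm8).

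Serpinh1, the collagen-specific chaperone, gave the strongest Cy5 signals of the set, at 75821 to 125346 units in knockout and 68700 to 124286 units in wild type, and no spot was saturated. Forelimb RNA held 3.65 times the reference in knockout and 4.21 times in wild type. The ratio had a lowest value of 1.31, a median of 1.99 and a highest of 2.22 in knockout, against 1.46, 2.17 and 2.58 in wild type. Here 2 knockout arrays stood below all wild-type arrays and 4 wild-type arrays above all knockout arrays. The difference was -0.20 (-0.48 to 0.073, limma adjusted p = 0.92), -0.28 without wild-type 1 and -0.35 within position 2.

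Lox, the lysyl oxidase that starts cross-linking and is itself activated by Bmp1, was the lowest of the set against the reference, at 0.143 times it in knockout and 0.168 times it in wild type. Its ratio had a lowest value of -3.22, a median of -2.78 and a highest of -2.20 in knockout, against -3.06, -2.53 and -2.16 in wild type. The groups overlapped, with 11 of 13 knockout arrays below the wild-type median. The difference was -0.23 (-0.47 to 0.012, unadjusted limma p = 0.062, adjusted p = 0.92). In position 2 Lox averaged -2.88 ± 0.31 in knockout and -2.87 ± 0.17 in wild type (SD, n = 3 each), a difference of -0.0072 against -0.23 over all arrays. The 6 wild-type arrays of position 1 averaged -2.43 ± 0.21 (SD). The part of position in the Lox value was not tested.

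With the mean of each genotype removed, the 10 genes did not vary as a block across the 22 arrays. Of 45 pairs, 9 had a Pearson r above 0.5, 1 had an r below -0.5, and the median was 0.12. The pairs that varied most alike were Tll1 with Adamts3 (0.75), Adamts2 with Lox (0.70) and Adamts3 with Serpinh1 (0.68). Bmp1 and Lox, proteinase and substrate, ran opposite to each other (-0.65). Without wild-type 1 these 4 values were 0.74, 0.72, 0.60 and -0.65. For Pcolce2 the member most alike was Plod2 (0.57, and 0.56 without wild-type 1), while 95% of all named genes lay between -0.52 and 0.54. Each gene was read by 1 probe here. Within genotypes the Adamts2 probe used had an r of 0.044, 0.26 and 0.71 with its other probes. The Adamts3 probe had an r of 0.16 with its second probe, and the reference signal of Tll1 was dim. These arrays share slides, reference RNA and normalisation, so the values are descriptions.

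**Figure D4:**
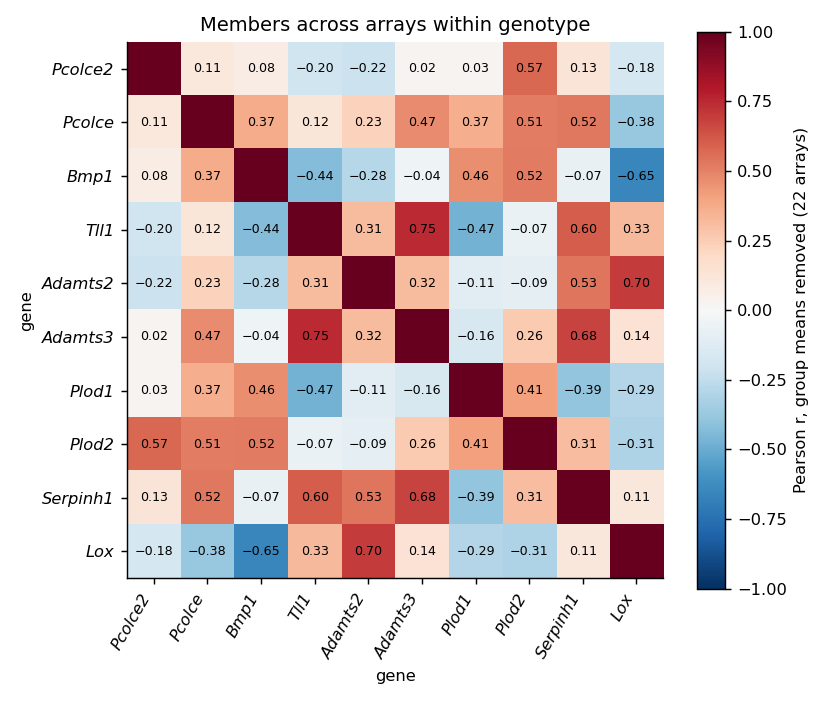
Pearson r between the 10 genes across 22 arrays after each genotype's mean was removed, from -1 (blue) to 1 (red). Pcolce2 is most like Plod2 at 0.57, and Bmp1 against Lox has the lowest value at -0.65.

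Among 16161 other named genes, those most like Pcolce2 within genotypes were the zinc finger gene Zfp524 (r = 0.78), Unc13d, which primes secretory granules (0.77), the linker histone gene H1f4 (0.76), Cldnd1 (0.76) and Mblac1 (0.76). The lowest were Fam135a (-0.84), the centriolar gene Cntln (-0.83) and the kinase gene Nek1 (-0.76). None of these 8 passed the test between genotypes. H1f4 had a mean ratio of -0.33 in knockout and 0.41 in wild type, a difference of -0.74 (-1.35 to -0.14, limma adjusted p = 0.92).

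Other genes of the pathway were read as 4 lists, and none of their members passed a limma adjusted p of 0.05. Of 17 genes for collagen folding and modification, 13 were lower and 4 higher in knockout (median -0.011). The genes with the smallest p among the lower ones were the prolyl isomerase gene Ppib at -0.13 (-0.010 by another probe), and the collagen-binding Sparc at -0.18 (-0.12 by another), and among the higher ones the prolyl hydroxylase gene P4ha3 at 0.11 and the collagen galactosyltransferase gene Colgalt2 at 0.074. Of the 13 other proteinases, activators and cross-linkers, 11 were tested (Tll2 and Mep1b did not pass the filter on dim probes), and 10 of these were lower and 1 higher (median -0.10). Loxl2, a lysyl oxidase relative, differed by -0.34 (95% interval -0.68 to 0.0074, limma adjusted p = 0.92) and by -0.32 with a second probe. Postn, a matrix protein that binds Bmp1, differed by -0.26 (0.024 by a dim second probe), and Loxl3, the 1 gene higher, by 0.00082.

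The substrates of these enzymes came last. Of 11 fibrillar procollagen genes 8 were lower and 3 higher (median -0.075), with the minor collagen gene Col5a3 at -0.30 (-0.56 to -0.034, limma adjusted p = 0.92; -0.029 by a dim second probe) and Col5a2 at -0.098. Col5a3 ran from -3.19 to -2.68 in knockout and from -3.20 to -1.65 in wild type. On the higher side Col1a2, a chain of type I collagen, differed by 0.12 (-0.14 by a dim second probe) and Col27a1 by 0.076. Of 11 other tolloid substrates tested among 14, 7 were lower and 4 higher (median -0.013). The smallest p among the lower genes were those of the proteoglycan genes Ogn at -0.28 (-0.57 to 0.0054) and Bgn at -0.19, and among the higher genes those of the growth factor genes Gdf11 at 0.073 and Mstn at 0.063, whose propeptides tolloids cut.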

How the data were processed

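Forelimb RNA of 22 samples was read on 2-colour arrays, with groups and replicate numbers from the sample titles. Per the file headers and the submitters' processing notes, the authors quantified the scans with Feature Extraction 9.5 (9.5.3.1 in the headers). The deposited spot and background intensity values are raw per the file headers. The deposited log10 ratio of Cy5 over Cy3 had its background subtracted and its dyes normalised in that software, and the value table equals it (largest difference 0 on every array). Columns without a sample numbered 0.

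Intensities were corrected with normexp (offset 50) and loess within arrays in limma 3.58.1 (R 4.3.3), with control and outlier spots at weight 0 and then left out. Spots of a probe were averaged. Testing needed a Cy5 signal well above background in 9 or more arrays, and the probe of highest mean intensity stood for its gene. Names came from RefSeq on GRCm38.p6, used only for names and promoters: the accession matched for 23374 probes and another accession for 103, 6678 matched by current and 2891 by older symbol, 1828 kept the name of the design and 6300 were unnamed. Knockout minus wild type was fitted over the 22 arrays (lmFit, eBayes; no covariates) with Benjamini-Hochberg adjustment over all genes tested at 0.05. Tested on simulated data for this comparison (18625 genes), the fit recovered 33.3% of changes of 1.2-fold, 81.3% at 1.5-fold and 95.3% at 2-fold. Of its calls there, 5.50% were false. Whether these rates hold for the real arrays, where genotype and position on the slide largely went together, was not tested. No 2 arrays were identical (correlations 0.886 to 0.993). Members, lists, settings and the rule for named genes (members, Chsy1, up to 2 genes per direction with the smallest p in each pathway list, and the 5 most and 3 least like Pcolce2) were chosen with earlier results of these data known. Same-numbered samples of both genotypes were not treated as pairs: 3 of 9 correlations of their deviations were above 0.1. Such correlations cannot show whether same-numbered samples shared a litter. Alternatives covered background, normalisation, channel, probe filter, probe averaging, blocks, weights, variance model and omitted arrays. Probe coordinates are those of the files (mm8).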

Additional observations from a re-analysis of the deposited data

Results flagged for a closer look

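The Adamts3 ratio of wild-type 1 was 0.50, and the nearest of the other 8 wild-type arrays was at 1.26. This gap is 0.569 of the range of the 9 arrays, above Dixon's critical value at 95%. Chance gives such a gap in about 1 in 20 groups, and 10 genes were looked at. Without this array the Adamts3 difference was -0.094 in place of 0.022, and neither passed the test.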

How the results depend on the processing

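Over 41 settings compared with limma, of which 22 left out 1 array each, Pcolce2 was lower in knockout in all 41. Pcolce, Adamts2, Plod2 and Serpinh1 were lower in all but median centring. Quantile normalisation of mean intensities after loess leaves the ratios unchanged, so that setting repeats the reported fit and could not differ from it. The Pcolce2 difference lost its adjusted p under 10 of the other 19 settings, of which that repeat is 1. It was -0.38 (adjusted p = 0.057) with the scanner software's log ratio, -0.067 (0.67) with median centring, and -0.34 (0.0503) with Cy5 alone. It was -0.34 (0.24) with slide as a block, -0.26 (1.00) with position as a block or in position 2 alone, -0.33 (0.98) there without the array labelled knockout 1, and -0.36 (0.0504) without wild-type 1 and knockout 12. Under median centring the median difference over all genes was 0.24, and there were 7212 genes with an unadjusted limma p under 0.05. Relative to that median the Pcolce2 difference was -0.31. Replicate numbers showed no clear pairing of the samples (1 of 9 knockout arrays correlated best with its own number, correlations -0.31 to 0.49). In arrays numbered 1 to 9 it was -0.34 both with the replicate block (adjusted p = 1.00) and without it (0.37), and each called 1 gene and 0 members.

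Genes called numbered 4 in the reported fit. They numbered 7 with array weights, 2 without wild-type 1 and the array labelled knockout 1, 1 with the scanner log ratio, median centring, either block, position 2 without that array, and without wild-type 1 and knockout 12, and 0 in position 2 alone, where 436 genes had an unadjusted limma p under 0.05 (993 in the reported fit). Members called were 0 under each of the 10 settings at which Pcolce2 lost its adjusted p. With single arrays left out, 2 to 6 genes and 0 to 1 members were called, and the Pcolce2 difference was -0.38 to -0.32. It lost its adjusted p without wild-type 2, 5 or 6 (highest 0.054).

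Small differences changed sign, and the cause was not tested. Adamts3 was -0.073 without background correction, -0.097 with Cy5 alone, -0.14 in position 2 or with that block, -0.076 there without the array labelled knockout 1 and with array weights, -0.082 without wild-type 1 and that array, and -0.074 without wild-type 1 and knockout 12. Tll1 was -0.0019 with offset 16, -0.058 with the scanner log ratio, -0.0081 with slide as a block, -0.00066 in position 2 or with that block, and -0.048 and -0.054 in the same pair omissions. Bmp1 (-0.28, and -0.34 without the array labelled knockout 1) and Plod1 (-0.12 and -0.20) turned in position 2 or with that block, and Plod1 also with array weights (-0.022). Lox was 0.17 in position 2 without that array. With median centring, where the differences hold the shift of all genes, Pcolce was 0.27, Adamts2 0.046, Plod2 0.19, Serpinh1 0.14 and Lox 0.098, and relative to the median of all genes these were 0.037, -0.19, -0.052, -0.098 and -0.14. Single omissions gave -0.010 to 0.093 for Bmp1, -0.059 to 0.10 for Tll1, -0.094 to 0.073 for Adamts3 and -0.074 to 0.11 for Plod1. Dim reference signals limit Tll1 and the tested Adamts3 probes.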

Other observations

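Relative to the mean of their genotype, 9 of the 10 genes were low on knockout 12 (mean deviation -0.17), 8 of 10 on knockout 3 (-0.059) and 8 of 10 on wild-type 1 (-0.30), while 9 of 10 were high on wild-type 5 (0.23). On the array labelled knockout 1, 6 of 10 were low (-0.17).

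The spread of the members within genotypes differed widely. Pcolce2 had a pooled SD of 0.13, at the 17.5th percentile of all genes tested. The Adamts2 probe used had one of 0.42, at the 94.8th percentile, beside a median of 0.19 over all genes. The other tested Adamts2 probes, all dimmer, had smaller SDs, from 0.059 to 0.23 in knockout and from 0.13 to 0.28 in wild type.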
